A study of Mus musculus with 6 samples.

Results

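The Zfp genes of the mouse are a large family of zinc finger genes, most of which encode DNA-binding transcription factors. The set described here was selected on name and overall level: every symbol of the deposited table made of Zfp and digits, without Zfp750 and Zfp36, whose mean over the 6 libraries was at least 2 TPM. TPM, a measure of transcript abundance, is a length-scaled share of the reads that sums to 1000000 in each library, and it was summed over the transcripts of a symbol. Of 354 such symbols in the table, 178 reached that mean and are called the members, out of 20522 gene symbols in all. The other 176 symbols were below it, among them 12 listed at 0 in all 6 libraries.

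RNA was sequenced from the ear epidermis of female C57BL6/N mice aged 8 weeks. In the 3 ETA sheet libraries the RNA came from upper epidermis peeled off with exfoliative toxin A, a bacterial protease that cuts desmoglein 1; the design names the granular cells SG1 and SG2 as its content. In the 3 Epidermal sheet libraries it came from the whole epidermis lifted off with dispase. Layer and isolation solution cannot be told apart. The p-values set the difference between groups against the scatter of libraries within them. Since separate animals are not stated for the replicates, that may be technical scatter.

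A Zfp protein typically carries a row of C2H2 fingers, short loops held by a zinc ion through a pair of cysteines and a pair of histidines, and each finger can contact a few bases of DNA. Many members also carry a KRAB box, which recruits the corepressor Trim28, a scaffold for Setdb1 and other makers of heterochromatin, and KRAB members of this family are known for silencing retroelements. Some genes bear the name for a finger of another kind or function outside transcription, in translation quality control, mitosis or splicing.

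The libraries matched their titles by epidermal markers. Summed granular markers reached 108311 to 122940 TPM in ETA sheets and 5275 to 7455 TPM in Epidermal sheets, and basal markers 134 to 217 TPM in ETA sheets and 14828 to 17227 TPM in Epidermal sheets. All 6 Langerhans cell, all 5 T cell, 4 of 5 melanocyte, 4 of 5 hair follicle and 3 of 4 sebaceous gland markers were lower in ETA sheets. All 4 proliferation markers were lower too, at a summed 0.758 to 0.917 TPM in ETA sheets and 84.7 to 106 TPM in Epidermal sheets, and of 4 spinous markers 1 was lower and 2 were higher, while 5 of 6 fibroblast markers were higher, at a summed 56.0 to 66.6 TPM in ETA sheets and 7.27 to 10.8 TPM in Epidermal sheets. The part of these cell types in the Zfp results was not tested, and fewer cells of a type cannot be told apart from less RNA per cell. In 2 columns the sheet type in the header differed from the title with the same library number, and in 2 more only the sheet number did. Groups followed the titles; with groups by header, no gene passed in limma (0 called), and 87 genes, 1 of them a member, had an unadjusted p under 0.05.

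Most Zfp transcripts were less abundant in the upper sheets. The members summed to 1306, 1279 and 1233 TPM in the ETA sheets and to 2111, 2433 and 2417 TPM in the Epidermal sheets, so every ETA sheet was below every Epidermal sheet. The median member stood at 1.98 ± 0.535 TPM in ETA sheets and 8.08 ± 1.003 TPM in Epidermal sheets (SD, n = 3 each). The 12 members with the highest overall mean held 51.5% of the members' mean sum in ETA sheets and 31.1% in Epidermal sheets. A single gene, Zfp706, took much of this: without it the sums were 932 ± 82.2 TPM in ETA sheets and 2185 ± 168 TPM in Epidermal sheets (SD, n = 3 each).

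**Figure D1:**
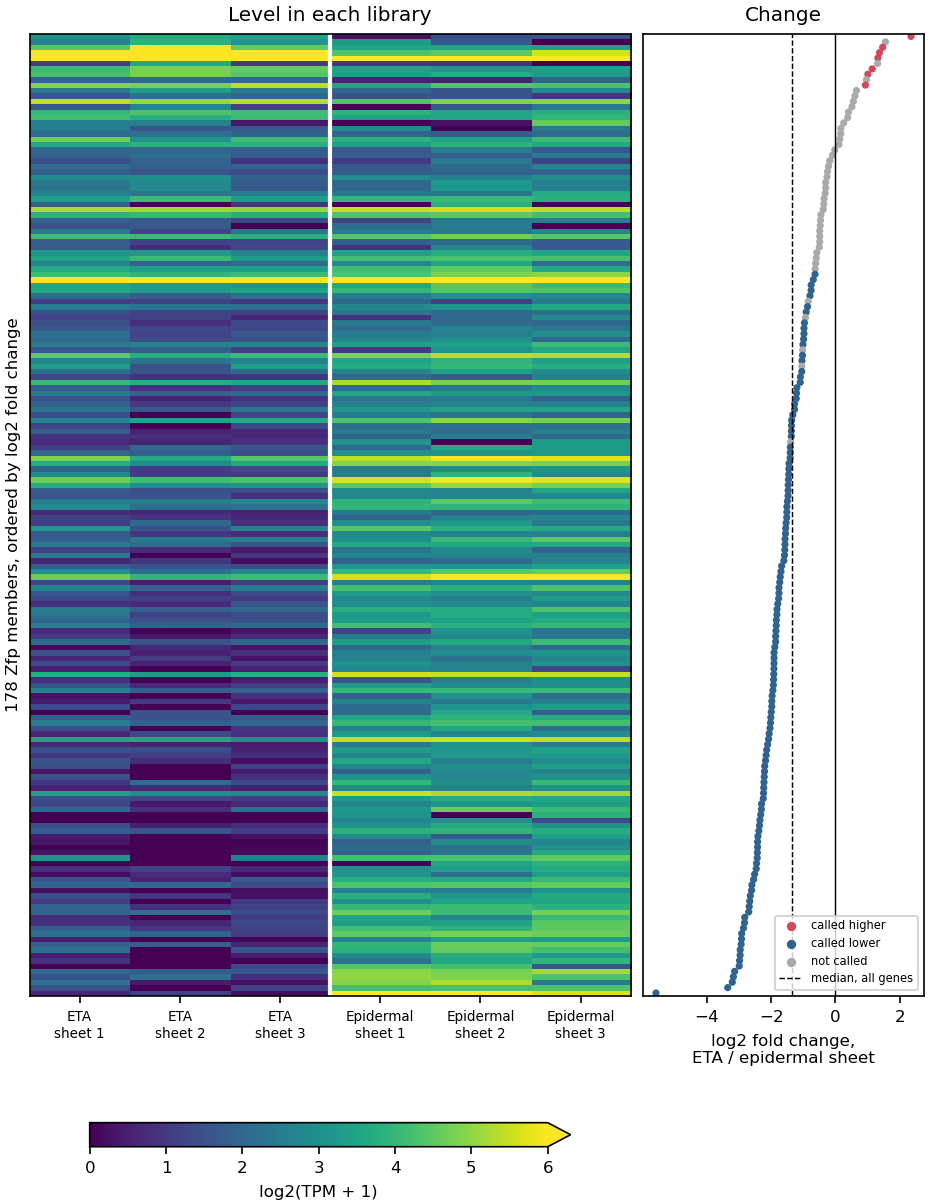
The left panel shows the level of the 178 members as log2(TPM + 1), 1 line per member and 1 column per library with the 3 ETA sheets first, and the right panel shows each member's log2 fold change, coloured by call, with the median of all genes tested (-1.34) as a dashed line. The 129 members called lower fill the lower part, where the ETA columns are dark, and ETA sheet 2 holds the most lines at 0.

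Members were listed at 0 in 6, 30 and 7 cases in ETA sheets 1, 2 and 3, and in 2, 3 and 4 cases in the Epidermal sheets. ETA sheet 2 stands apart in this: 16.9% of the members were at 0 there, against 10.02% of all tested genes averaging 2 TPM or more. In the other libraries 1.45% to 2.45% of such genes were at 0, so the zeros of ETA sheet 2 are not limited to the members. Zfp523, Zfp654 and Zfp960 were listed at 0 in all 3 ETA sheets. Of the 178 members, 85 had a group mean of at least 2 TPM in both groups, 89 only in Epidermal sheets and 4 only in ETA sheets.

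Tested with limma on log2(TPM + 1) across 11683 genes, with Benjamini-Hochberg adjustment and a threshold of 0.05, 129 members (72.5%) were lower in ETA sheets, 7 were higher and 42 were not called. The share lower lies near the background, which was 63.6% of all genes tested and 67.4% of those averaging 2 TPM or more. Because 89 members reach 2 TPM only in Epidermal sheets, these counts lean towards lower: of the 85 members at 2 TPM or more in both groups, 49 (57.6%) were lower and 6 higher, with a median of -0.99, against 63.7% lower, 12.2% higher and a median of -1.21 of all genes so chosen. Among all 178 members the share higher was 3.93%, against 10.1% of all genes and 10.7% of genes averaging 2 TPM or more. On this log2 scale, where changes of low genes come out too small, the median change was -1.51 for the members, -1.34 for all genes tested and -1.43 for genes averaging 2 TPM or more. The 2 groups of libraries did not overlap in 133 members with ETA sheets below and in 12 with ETA sheets above, against 69.1% and 11.4% of genes averaging 2 TPM or more.

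The shift of all genes sets much of this picture. When each library was centred on the median of its tested genes, the median change of all genes moved to 0.16 and that of the members to -0.02. Then 25 members were lower, against a background of 18.8%, and 40 were higher, against a background of 29.1% (21.1% and 29.7% of genes averaging 2 TPM or more). Among the 85 members at 2 TPM or more in both groups 6 were then lower and 35 higher, with a median of 0.51, against backgrounds of 18.0% and 35.9% and a median of 0.28. Of the 129 members first called lower, 25 kept that call and 4 turned to higher, namely Zfp207, Zfp131, Zfp180 and Zfp217; the 7 called higher all kept their call. Changes below are given on the deposited TPM scale, with the centred value where it bears on the direction.

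**Figure D2:**
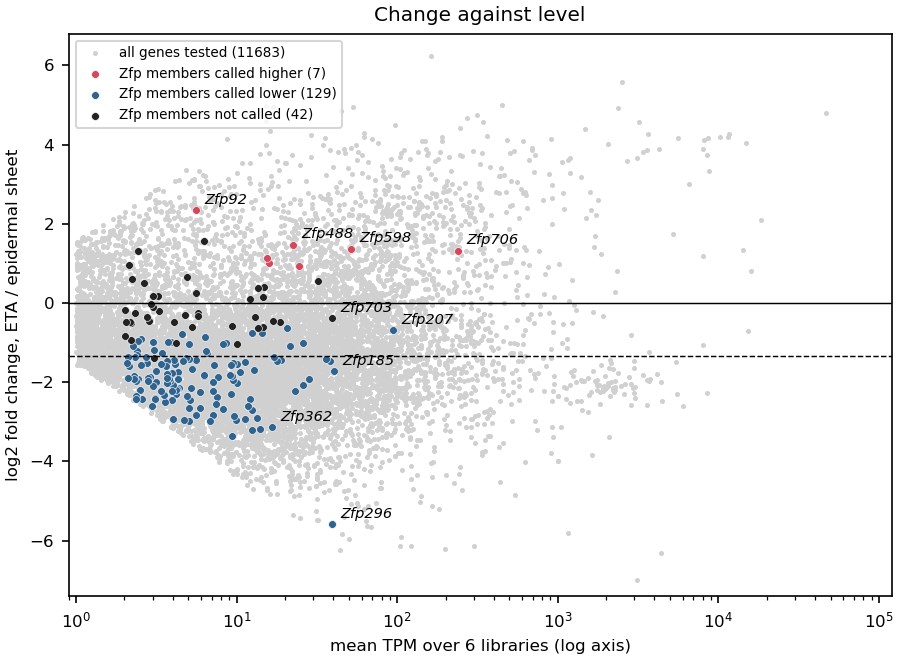
Each point is a gene, with its mean TPM over the 6 libraries on a log axis and its log2 fold change of ETA over Epidermal sheets; grey points are the 11683 genes tested, and members are coloured by call. The members lie within the cloud of all genes, whose median of -1.34 is dashed, with Zfp296 near its lower edge.

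The 7 members that were higher in ETA sheets were Zfp706, Zfp598, Zfp92, Zfp488, Zfp949, Zfp672 and Zfp800. Zfp706, which encodes a small protein that helps mouse embryonic stem cells leave self-renewal, was the most abundant member in every library. It had 281, 380 and 363 TPM in ETA sheets, against 119, 141 and 145 TPM in Epidermal sheets. The groups lie far apart, and the log2 change was 1.32 ± 0.19 (SE; limma adjusted p = 0.000356).

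Zfp598 encodes a ubiquitin ligase that marks collided ribosomes. It had 78.3, 62.0 and 78.2 TPM in ETA sheets, against 19.2, 21.9 and 48.1 TPM in Epidermal sheets. Epidermal sheet 3 was high within its group but below every ETA sheet; the log2 change was 1.37 ± 0.34 (SE; limma adjusted p = 0.00588). A second Zfp598 transcript, which the table lists without a symbol, had 43.1, 75.3 and 68.3 TPM in ETA sheets, against 23.3, 23.5 and 0.00102 TPM in Epidermal sheets. Added together, both transcripts gave 121, 137 and 146 TPM in ETA sheets and a narrow 42.5, 45.4 and 48.1 TPM in Epidermal sheets.

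Zfp92, a KRAB member, had the largest increase. It was at 7.60, 11.9 and 10.3 TPM in ETA sheets and at 0.177, 1.75 and 1.88 TPM in Epidermal sheets, a 7.81-fold ratio of means (log2 change 2.35 ± 0.42 SE; limma adjusted p = 0.00114). Zfp488, known in mice for promoting oligodendrocyte maturation, had 20.4, 60.8 and 22.2 TPM in ETA sheets and 10.7, 10.5 and 9.68 TPM in Epidermal sheets. ETA sheet 2 alone lies far above the other ETA sheets, yet the call (log2 change 1.47 ± 0.40 SE; limma adjusted p = 0.00934) held when any 1 library was left out.

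The KRAB member Zfp949 was also higher, at 16.2, 26.4 and 22.7 TPM in ETA sheets and 9.92, 7.98 and 9.46 TPM in Epidermal sheets. Zfp672 had 18.1, 26.3 and 20.1 TPM in ETA sheets and 9.62, 11.9 and 8.85 TPM in Epidermal sheets. Its 2 unnamed transcripts remove the call: with both added, the values were 42.5, 55.2 and 54.1 TPM in ETA sheets and 40.1, 38.4 and 17.9 TPM in Epidermal sheets (limma adjusted p = 0.0675). Zfp800 had 29.1, 26.4 and 41.3 TPM in ETA sheets and 10.7, 20.2 and 19.1 TPM in Epidermal sheets. Its log2 change of 0.94 ± 0.30 (SE; limma adjusted p = 0.0207) passed the test in 4 of 6 fits that left out 1 library. The call was lost without ETA sheet 3, at 0.75, and without Epidermal sheet 1, at 0.66.

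**Figure D3:**
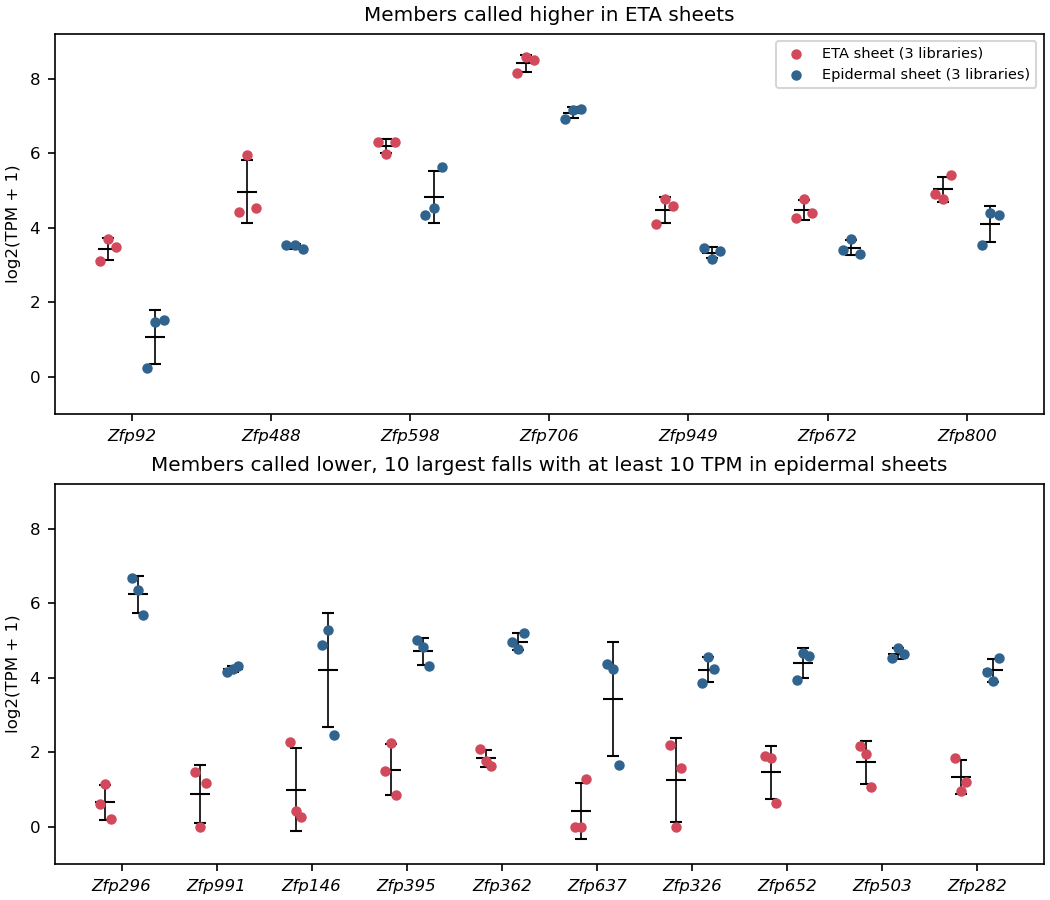
Points are log2(TPM + 1) in single libraries, ETA sheets left of Epidermal sheets for each gene, with the mean and SD of 3 libraries; the upper panel holds the 7 members called higher and the lower panel the 10 largest decreases with at least 10 TPM in Epidermal sheets. In the upper panel no gene's groups overlap, while the lower genes were chosen among those whose groups do not overlap. The wide bar of Zfp488 in ETA sheets comes from 1 library, as do those of Zfp146 and Zfp637 in Epidermal sheets. In ETA sheets the bars of Zfp146 and Zfp326 are wide too.

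The largest decrease belonged to Zfp296, a partner of Klf4 in mouse pluripotent cells. It had 0.535, 1.21 and 0.148 TPM in ETA sheets, against 100.3, 81.4 and 50.5 TPM in Epidermal sheets. Every Epidermal sheet was far above every ETA sheet, the means were 122-fold apart, and the log2 change was -5.58 ± 0.35 (SE; limma adjusted p = 1.26e-05). After centring it was still -4.09.

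Decreases were ranked among members called lower with at least 10 TPM in Epidermal sheets and groups that do not overlap. After Zfp296 the next 9 were Zfp991, Zfp146, Zfp395, Zfp362, Zfp637, Zfp326, Zfp652, Zfp503 and Zfp282, with log2 changes between -3.35 and -2.86. Zfp362 was the tightest of them: 3.29, 2.39 and 2.12 TPM in ETA sheets and 29.8, 26.2 and 35.7 TPM in Epidermal sheets (log2 change -3.13 ± 0.26 SE; limma adjusted p = 3.4e-05). Zfp395 had 1.84, 3.75 and 0.814 TPM in ETA sheets and 31.2, 27.2 and 18.7 TPM in Epidermal sheets. Zfp362, Zfp395, Zfp503 and Zfp296, with Zfp219, were also the 5 most abundant members still called lower after centring. Zfp219 had 9.84, 6.82 and 5.91 TPM in ETA sheets and 44.1, 37.3 and 34.3 TPM in Epidermal sheets.

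Zfp503 belongs with Zfp703 to the small NET family of corepressors, in which no C2H2 pattern was found here. Zfp503 had 3.49, 2.86 and 1.10 TPM in ETA sheets and 21.9, 26.6 and 23.8 TPM in Epidermal sheets (log2 change -2.92 ± 0.33 SE; limma adjusted p = 0.000127). Zfp703 had 36.4, 33.4 and 31.6 TPM in ETA sheets and 43.5, 47.7 and 41.3 TPM in Epidermal sheets, groups that do not overlap, but its log2 change of -0.38 ± 0.19 was not called (SE; limma adjusted p = 0.0959). After centring Zfp703 was higher, at 1.12. The difference between these genes was not tested.

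Zfp652 had 2.72, 2.60 and 0.556 TPM in ETA sheets and 14.4, 24.3 and 22.8 TPM in Epidermal sheets. Zfp282 had 2.59, 0.952 and 1.29 TPM in ETA sheets and 16.9, 13.97 and 21.9 TPM in Epidermal sheets. Zfp326, a subunit of the DBIRD complex that couples RNA polymerase II to splicing, had 3.57, 0 and 1.98 TPM in ETA sheets and 13.6, 22.5 and 17.8 TPM in Epidermal sheets. These genes were chosen among members whose groups do not overlap.

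Zfp146, Zfp637 and Zfp991 are less certain. Zfp146, a protein made almost wholly of fingers, had 3.84, 0.349 and 0.205 TPM in ETA sheets and 28.2, 37.9 and 4.47 TPM in Epidermal sheets; the low Epidermal sheet 3 reads 30.2 TPM once an unnamed transcript is added. Zfp637 had 0, 0 and 1.43 TPM in ETA sheets and 19.6, 17.9 and 2.15 TPM in Epidermal sheets, with sheet 3 near the ETA values. Unnamed Zfp637 transcripts hold 1.84 and 0.721 TPM in ETA sheet 1, and the latter holds 0.0455 TPM in Epidermal sheet 3. With them added the Zfp637 groups overlap, and the log2 change is -2.40 in place of -2.99. Zfp991 had 1.77, 0 and 1.26 TPM in ETA sheets and 16.8, 17.8 and 18.7 TPM in Epidermal sheets, but 93.9% of the 25-base stretches of its transcript occur in other genes, so reads may have been split between copies.

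Sequences are shown for 2 members that were higher, the member with the largest decrease and 1 KRAB member that was not called, each as the 250 bases before the start of transcription. They are RefSeq promoters of build GRCm38.p6, read 5′ to 3′ on the gene's strand. Capitals mark the GC box GGGCGG, the CCAAT box CCAAT and the ETS-type motif CCGGAAG, each searched on both strands.
Zfp598 promoter, chr17:24669437-24669686, plus strand: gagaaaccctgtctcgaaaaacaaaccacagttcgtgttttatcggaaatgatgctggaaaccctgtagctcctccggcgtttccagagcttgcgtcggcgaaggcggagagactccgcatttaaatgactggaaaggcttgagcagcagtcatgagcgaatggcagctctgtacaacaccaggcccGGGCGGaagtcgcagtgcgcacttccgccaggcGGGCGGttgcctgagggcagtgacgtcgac
Zfp488 promoter, chr14:33978765-33979014, minus strand: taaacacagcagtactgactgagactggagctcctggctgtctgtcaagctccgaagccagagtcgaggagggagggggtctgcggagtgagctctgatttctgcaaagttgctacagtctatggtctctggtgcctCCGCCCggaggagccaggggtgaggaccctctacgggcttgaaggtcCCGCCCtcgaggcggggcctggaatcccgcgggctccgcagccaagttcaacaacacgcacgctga
Zfp296 promoter, chr7:19577037-19577286, plus strand: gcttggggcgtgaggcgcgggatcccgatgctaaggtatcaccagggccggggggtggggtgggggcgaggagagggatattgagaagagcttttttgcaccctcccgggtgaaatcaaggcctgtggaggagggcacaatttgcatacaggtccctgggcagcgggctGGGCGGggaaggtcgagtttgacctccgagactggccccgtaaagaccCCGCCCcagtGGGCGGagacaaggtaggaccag
Zfp120 promoter, chr2:150136679-150136928, minus strand: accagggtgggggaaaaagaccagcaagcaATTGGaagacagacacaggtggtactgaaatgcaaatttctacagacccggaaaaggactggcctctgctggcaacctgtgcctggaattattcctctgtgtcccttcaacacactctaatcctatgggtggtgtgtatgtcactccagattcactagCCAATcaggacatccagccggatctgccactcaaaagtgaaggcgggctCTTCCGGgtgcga
Zfp598 and Zfp488, both higher in ETA sheets, hold 2 GC boxes each and Zfp296 holds 3, and none of the 3 holds a CCAAT box or the ETS-type motif. Zfp120 holds 2 CCAAT boxes, 1 ETS-type motif and no GC box. A match describes the letters and is not evidence of a bound site.

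RefSeq promoters were found for 150 of the 178 members, 185 promoters in all. A GC box stood in 51.9% of them, against 32.7% of all 32851 promoters of the same length, a CCAAT box in 46.5% against 33.9%, and the ETS-type motif in 14.6% against 6.91%. The set of all promoters was not limited by level, while the members were chosen at 2 TPM or more. Of 78 KRAB promoters, 34.6% had a GC box and 60.3% a CCAAT box, against 64.5% and 36.5% of 107 promoters of members without the KRAB pattern. By call, a GC box was found in 59.6% of the promoters of members lower in ETA sheets, 20.5% of those not called and 70.0% of the 10 of members higher. The CCAAT box ran the other way, at 41.9%, 66.7% and 30.0%. A gene can have several promoters: those of members lower, not called and higher numbered 136, 39 and 10, from 110, 34 and 6 genes. Promoters with and without the KRAB pattern came from 68 and 82 genes. The shares are given without a test, and KRAB content and call are not independent in them.

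Of the 12 most abundant members, Zfp706 and Zfp598 were higher, Zfp703 and Zfp772 were not called, and the other 8 were lower. Zfp207, a spindle and kinetochore protein that binds Bub3, was the second in abundance. It had 70.4, 78.9 and 66.5 TPM in ETA sheets and 103, 118 and 129 TPM in Epidermal sheets, and its log2 change of -0.69 ± 0.18 (SE; limma adjusted p = 0.00808) became 0.81 after centring, called higher. Its decrease is thus smaller than that of the median gene.

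Zfp185, an actin-binding LIM domain protein without C2H2 fingers, had 25.2, 14.3 and 16.2 TPM in ETA sheets and 47.6, 73.6 and 66.3 TPM in Epidermal sheets. Zfp330, a nucleolar protein, had 12.3, 8.95 and 12.7 TPM in ETA sheets and 48.0, 43.6 and 43.6 TPM in Epidermal sheets. Zfp740 had 10.1, 10.97 and 7.11 TPM in ETA sheets and 41.7, 44.6 and 40.5 TPM in Epidermal sheets. In each of these genes every ETA sheet was below every Epidermal sheet, with log2 changes of -1.71, -1.92 and -2.08.

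Zfp91, Zfp266 and Zfp410 were lower by about as much as the median gene. Zfp91, a ubiquitin ligase with fingers, had 24.4, 16.5 and 19.0 TPM in ETA sheets and 49.9, 67.3 and 52.2 TPM in Epidermal sheets. The KRAB member Zfp266 had 27.8, 11.8 and 20.2 TPM in ETA sheets and 42.0, 61.8 and 52.9 TPM in Epidermal sheets. Zfp410, known for activating the Chd4 gene, had 22.6, 12.3 and 15.9 TPM in ETA sheets and 27.0, 40.3 and 37.5 TPM in Epidermal sheets. After centring their log2 changes were 0.03, 0.09 and 0.47.

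The 6 most abundant members not called were Zfp703, Zfp772, Zfp954, Zfp120, Zfp593 and Zfp277. The KRAB member Zfp772 had 42.9, 32.7 and 39.3 TPM in ETA sheets and 19.5, 28.2 and 30.0 TPM in Epidermal sheets (log2 change 0.56 ± 0.24 SE; limma adjusted p = 0.0579), and it passed the test when ETA sheet 2 was left out, at 0.67. Zfp954 had 16.8, 15.4 and 13.6 TPM in ETA sheets and 20.1, 24.9 and 20.4 TPM in Epidermal sheets, and Zfp120, whose promoter is shown above, had 13.99, 15.3 and 12.6 TPM in ETA sheets and 19.5, 21.5 and 17.4 TPM in Epidermal sheets. In these 3 KRAB members the groups do not overlap, and after centring Zfp772 was higher, at 2.06, Zfp954 at 1.01 and Zfp120 at 1.04. The largest Zfp120 transcript alone had a log2 change of 2.19, against -0.45 for the sum of its transcripts, and neither was called. Zfp277 had 10.7, 15.5 and 8.77 TPM in ETA sheets and 16.8, 18.5 and 17.7 TPM in Epidermal sheets (limma adjusted p = 0.0656). It was lower when ETA sheet 2 was left out, but after centring its log2 change was 0.90.

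Among 10 members listed for roles outside transcription, 6 were lower, 2 were higher and 2 were not called, with a median log2 change of -0.89. These shares of 60% and 20% stand beside 67.4% and 10.7% of all genes averaging 2 TPM or more. The 2 higher are Zfp706 and Zfp598 described above. For Zfp706 no role outside transcription is stated here, so the share of 20% depends on its place on the list. Zfp593 and Zfp622, which act in large ribosomal subunit export and maturation, had different calls, a difference that was not tested. Zfp593 had 15.0, 19.0 and 16.8 TPM in ETA sheets and 13.9, 10.7 and 12.9 TPM in Epidermal sheets and was not called (limma adjusted p = 0.135). Zfp622 had 15.2, 12.9 and 11.4 TPM in ETA sheets and 37.1, 25.8 and 25.6 TPM in Epidermal sheets. Its log2 change was -1.09 ± 0.24 (SE, limma adjusted p = 0.00356). After centring Zfp593 was called higher, at 1.90, and Zfp622 was not called, at 0.40.

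Zfp106, an RNA-binding protein needed for mouse neuromuscular function, had 4.75, 2.49 and 3.04 TPM in ETA sheets and 14.9, 17.7 and 17.2 TPM in Epidermal sheets. Zfp346, which binds double-stranded RNA, had 1.76, 0.470 and 0.807 TPM in ETA sheets and 5.22, 6.45 and 7.34 TPM in Epidermal sheets. Both were lower, by 2.02 and 1.91 on the log2 scale. Zfp830, which was not called, had 5.63, 2.63 and 3.19 TPM in ETA sheets and 5.83, 10.9 and 3.44 TPM in Epidermal sheets.

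Among 11 members known as regulators from mouse or human work, 7 (63.6%) were lower and 4 were not called, with a median of -1.04. By limma 0 were higher (0 also at an unadjusted p under 0.05). Of all genes averaging 2 TPM or more, 67.4% were lower and 10.7% higher. Zfp143, an activator of small nuclear RNA genes found at chromatin loop anchors, had 4.39, 5.69 and 5.71 TPM in ETA sheets and 9.47, 9.87 and 16.3 TPM in Epidermal sheets; the call was lost without Epidermal sheet 3. Zfp148 had 1.71, 1.38 and 1.12 TPM in ETA sheets and 8.64, 12.03 and 10.5 TPM in Epidermal sheets. Zfp281, a regulator of pluripotency in mouse embryonic stem cells, had 0.554, 0.943 and 0.154 TPM in ETA sheets and 2.72, 3.17 and 5.32 TPM in Epidermal sheets. These 3 were lower in ETA sheets.

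Zfp217, known from amplification in human breast cancer, had 10.5, 9.03 and 7.28 TPM in ETA sheets and 11.5, 20.6 and 15.9 TPM in Epidermal sheets. Its call (limma adjusted p = 0.0389) held in only 2 of 6 fits that left out 1 library, being lost without ETA sheets 2 and 3 and without Epidermal sheets 2 and 3. Zfp335, required for neural progenitors in mice, hardly differed on the deposited scale. It had 11.3, 13.5 and 12.8 TPM in ETA sheets and 9.70, 13.7 and 11.4 TPM in Epidermal sheets. The log2 change was 0.11 ± 0.24 (SE, limma adjusted p = 0.681), but after centring Zfp335 was called higher, at 1.61. Zfp809, which silences murine leukaemia viruses, had 2.16, 2.502 and 1.19 TPM in ETA sheets and 0.997, 7.46 and 10.96 TPM in Epidermal sheets and was not called, but was lower without Epidermal sheet 1.

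Zfp292 had 1.43, 0.325 and 0.579 TPM in ETA sheets and 5.64, 7.62 and 9.53 TPM in Epidermal sheets, and Zfp318 had 0.0929, 0.598 and 0.260 TPM in ETA sheets and 3.18, 5.11 and 3.35 TPM in Epidermal sheets. Both were lower, at log2 changes of -2.30 and -1.89. Zfp110, which binds the p75 neurotrophin receptor, had 9.24, 1.91 and 9.59 TPM in ETA sheets and 12.1, 14.8 and 12.3 TPM in Epidermal sheets and was not called. ETA sheet 2 alone is far below the rest.

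Unnamed transcripts change single members more than the family. Through their accessions, 36 unnamed transcripts could be given to 24 members, and they held 7.72% to 10.4% of the members' TPM in ETA sheets and 4.09% to 5.92% in Epidermal sheets. With them 134 members were lower and 6 higher, against backgrounds of 63.2% and 10.5%. Zfp414 shows the effect: as deposited it had 5.02, 5.26 and 0.337 TPM in ETA sheets and 0, 0.233 and 22.7 TPM in Epidermal sheets and was not called, and with its unnamed transcript 5.02, 5.26 and 4.75 TPM in ETA sheets and 18.7, 18.9 and 22.7 TPM in Epidermal sheets (limma adjusted p = 0.000154). Zfp24, Zfp707, Zfp809 and Zfp944 also became lower. Zfp523 and Zfp654, at 0 in the ETA sheets as deposited, had 6.25, 3.70 and 4.23 TPM and 2.75, 2.34 and 1.72 TPM there once filled, while Zfp960 stayed at 0. Zfp384 kept its call, but its values became 20.4, 17.4 and 15.0 TPM in ETA sheets and 28.3, 27.8 and 36.3 TPM in Epidermal sheets, with a log2 change of -0.77 in place of -2.43.

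By the KRAB box, found as a sequence pattern in the translated transcripts, 73 members carried it and 105 did not. Of the KRAB members 47 (64.4%) were lower and 2 (2.74%) were higher, with a median of -1.39. Of the others 82 (78.1%) were lower and 5 (4.76%) were higher, with a median of -1.69. Among all genes averaging 2 TPM or more, 67.4% were lower and 10.7% higher, with a median of -1.43. After centring 6 KRAB members (8.22%) were lower and 16 (21.9%) higher, with a median of 0.10. Of the others 19 (18.1%) were then lower and 24 (22.9%) higher, with a median of -0.20. The centred background of genes averaging 2 TPM or more was 21.1% lower and 29.7% higher, with a median of 0.06. The classes differ in other ways too: KRAB members had a median of 12 finger patterns and an overall level of 3.77 TPM, the others 7 finger patterns and 6.47 TPM. By number of fingers, 20 of 29 members (69.0%) with 0 to 3 were lower. So were 53 of 67 (79.1%) with 4 to 9 and 56 of 82 (68.3%) with 10 or more, against the same 67.4%. The difference between classes was not tested.

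**Figure D4:**
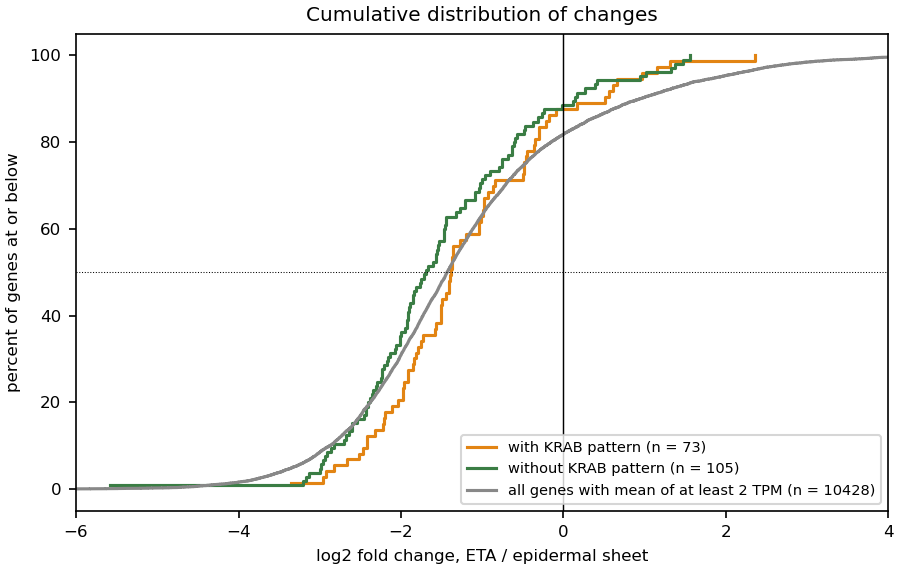
Lines give the percent of genes at or below a log2 fold change of ETA over Epidermal sheets, for the 73 members with a KRAB pattern, the 105 without and all 10428 genes averaging 2 TPM or more. At the middle of the distribution the medians are -1.39, -1.69 and -1.43, and the grey line of all genes reaches further right than either class.

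By level, 64 of 88 members with a mean of 2 to 5 TPM were lower (background at that level 62.2%), 37 of 45 with 5 to 10 TPM (73.4%), 17 of 28 with 10 to 20 TPM (76.1%) and 11 of 17 with at least 20 TPM (63.0%). The members higher by limma numbered 0 (0 also at an unadjusted p under 0.05), 1, 2 and 4 in the same 4 bands of level, where the backgrounds of higher genes were 5.17%, 5.06%, 5.48% and 18.4%. Members with another member as the next coding gene along the chromosome numbered 56, in 21 runs. Of these 41 (73.2%, against 72.5% of all members and 67.4% of genes averaging 2 TPM or more) were lower and 1 was higher. Their median of -1.51 stood beside -1.53 for the remaining members.

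Shared sequence limits what can be said of single copies. In 38 members at least 20% of the 25-base stretches of the transcript occur in other genes, and in 7 at least 90% do. Zfp966 and Zfp967 had values equal to within 0.0554% in every library, at 4.08, 6.08 and 2.25 TPM in ETA sheets and 2.96, 8.12 and 5.04 TPM in Epidermal sheets for Zfp966. They cannot be read as separate genes.

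Most genes on a list of KRAB cofactors and other heterochromatin genes were less abundant in ETA sheets. Of 32 tested genes for KRAB cofactors and heterochromatin, 29 (90.6%, against 63.6% of all genes) were lower and 0 were higher by limma (0 also at an unadjusted p under 0.05), with a median of -2.05; after centring 14 were lower and 4 higher, against backgrounds of 18.8% and 29.1%. Trim28 had 29.4, 21.6 and 23.5 TPM in ETA sheets and 76.2, 71.6 and 87.6 TPM in Epidermal sheets (log2 change -1.63 ± 0.20 SE; limma adjusted p = 0.000198); after centring it was at -0.13 and not called. Setdb1, the histone H3 lysine 9 methyltransferase that Trim28 recruits, had 4.69, 1.80 and 3.06 TPM in ETA sheets and 22.1, 15.5 and 18.3 TPM in Epidermal sheets. It stayed lower after centring, at -0.78. For both, every ETA sheet was below every Epidermal sheet.

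The deacetylase Hdac1 averaged 22.8 ± 6.33 TPM in ETA sheets and 99.5 ± 7.94 TPM in Epidermal sheets (SD, n = 3 each). The largest decreases on the list were those of Mta1, at 1.28 TPM in ETA sheets and 25.6 TPM in Epidermal sheets, and Uhrf1, at 0.399 TPM in ETA sheets and 17.2 TPM in Epidermal sheets. The proliferation markers moved with these genes, and their part was not tested. Chd4, the remodeller of the NuRD complex, was not called, with 30.5, 11.99 and 26.4 TPM in ETA sheets and 28.0, 43.9 and 47.2 TPM in Epidermal sheets. Of 11 corepressors used by BTB and SCAN zinc finger proteins, 8 (72.7%, against 63.6% of all genes) were lower, among them Ncor1. By limma or at an unadjusted p under 0.05, 0 were higher, while limma called 10.1% of all genes higher. After centring 1 was lower and 2 were higher, against backgrounds of 18.8% and 29.1%.

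In other zinc finger families the counts lower and higher were 18 and 0 of 31 Zbtb genes, 7 and 1 of 16 Zscan and Zkscan genes, 8 and 0 of 13 Klf genes, and 4 and 1 of 5 Sp genes. They were 9 and 0 of 14 Zc3h genes and 12 and 2 of 18 Zdhhc genes. Where limma called 0 higher, 1 Zbtb gene, 0 Klf genes and 0 Zc3h genes were higher at an unadjusted p under 0.05. Most of these shares of lower genes lie near the 63.6% of all genes, but Zscan and Zkscan stood at 43.8% and Sp at 80%. Of all genes 10.1% were higher. After centring the counts lower and higher were 0 and 10 for Zbtb, 1 and 3 for Zscan and Zkscan, and 4 and 3 for Klf. They were 1 and 1 for Sp, 1 and 5 for Zc3h, and 1 and 4 for Zdhhc. The centred backgrounds were 18.8% lower and 29.1% higher, and 1 Zbtb gene was lower at an unadjusted p under 0.05.

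Just inside the level that admits a member stood Zfp24 at a mean of 2.03 TPM, Zfp738 at 2.02 TPM and Zfp626 at 2.01 TPM, and just outside Zfp715 at 1.99 TPM, Zfp7 at 1.90 TPM and Zfp81 at 1.90 TPM. Zfp738 had 1.08, 1.25 and 0.874 TPM in ETA sheets and 3.08, 1.21 and 4.63 TPM in Epidermal sheets, and Zfp626 had 1.73, 2.68 and 0.755 TPM in ETA sheets and 1.003, 4.60 and 1.27 TPM in Epidermal sheets. The groups overlap in both genes.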

How the data were processed

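RNA from ear epidermis was made into directional libraries and read in pairs of 25 bp, per the labels' protocols. The submitters' processing notes name Salmon, Bowtie2 and the build mm9; the annotation and the role of each tool were not given in the sources used here. The authors deposited TPM for 37903 transcripts, of which 7951 have no symbol. TPM keeps no depth, so the depth behind each value is unknown and no counting interval is given; the spread of 3 libraries per group sets the precision.

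Each column was matched to a sample through the library number shared by header and title. TPM was summed by symbol, and limma 3.58.1 (R 4.3.3) compared ETA minus Epidermal sheets on log2(TPM + 1) for genes averaging 1 TPM or more, two-sided, using a variance trend in its empirical Bayes step and Benjamini-Hochberg adjustment over all 11683 genes. Folds are ratios of mean TPM. The fit was tested on simulated data. Same-numbered samples did not deviate together, so no block was used. Tables were made with Python 3.11.15, numpy 2.4.6 and pandas 2.3.3, and figures with matplotlib 3.10.9.

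Finger and KRAB patterns, and 25-base stretches shared with other genes, were read from the longest open reading frame or whole sequence of reference transcripts of GRCm38. Promoters are those of RefSeq for GRCm38.p6; coordinates refer to that build, not to mm9.

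The members, lists, tests and naming rule were chosen with earlier results of these data known. Named are the 12 most abundant members, those called higher, the 10 largest decreases at 10 TPM or more, the 6 most abundant not called, the 5 most abundant called in each direction after centring, those beside the 2 TPM limit and those on the lists of roles. The 10 largest decreases were taken among members called lower whose groups do not overlap. Of the cofactors, the 2 largest decreases were added to Trim28, Setdb1, Chd4 and Hdac1. Zfp131, Zfp180, Zfp414, Zfp707, Zfp944, Zfp523, Zfp654, Zfp960, Zfp966, Zfp967, Ncor1 and the genes of the closing observations were picked with their values in view, and filling in names by accession was added after seeing the data. One result is not reported here. Other alternatives were pseudocounts, filters, scalings, a replicate block, no variance trend, the largest transcript, header groups, wider names and leaving out each library.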

Additional observations from a re-analysis of the deposited data

How the results depend on the processing

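Under median centring 25 members were lower and 40 higher (median -0.017; all genes 2202 lower, 3405 higher), and under trimmed-mean scaling 43 were lower and 32 higher (median -0.42; all genes 2773 lower, 2975 higher). Log2 changes of named members turned positive under centring and trimmed-mean scaling for Zfp207 (0.81 and 0.81), Zfp703 (1.12 and 1.10), Zfp91 (0.035 and 0.0093), Zfp266 (0.087 and 0.056), Zfp410 (0.47 and 0.43), Zfp954 (1.01 and 0.95), Zfp120 (1.04 and 0.98), Zfp277 (0.90 and 0.82), Zfp622 (0.40 and 0.35), Zfp143 (0.49 and 0.33) and Zfp217 (0.74 and 0.64), and, among members called on none of the 3 scales, for Zfp24 (1.02 and 0.22), Zfp738 (0.65 and 0.091), Zfp626 (1.32 and 0.75), Zfp830 (0.88 and 0.62), Zfp809 (0.47 and 0.077) and Zfp110 (0.45 and 0.29). With groups by header names 0 members were lower, 0 were higher, the median was -0.62, all genes gave 0 and 0, and Zfp143 stood at 0.11. A pseudocount of 0.1 gave a median of -1.97; a filter at 5 TPM, and a limit of 5 TPM for members, each left 65 lower, since fewer genes enter. Leaving out 1 library gave 110 to 125 lower and 6 to 8 higher members, a median of -1.69 to -1.45, and 6667 to 7535 lower and 1063 to 1155 higher genes. The replicate block gave 118 lower and 7 higher members; the numbers do not pair the samples (correlations of deviations 0.02, -0.03 and -0.04). Taking a symbol's largest transcript alone, 105 were lower and 6 higher, and Zfp410 (-0.50) and Zfp672 (1.19) lost their calls; Zfp120 was at 2.19, Zfp703 at 0.026, Zfp266 at -2.63, Zfp217 at -2.28, Zfp185 at -2.41 and Zfp219 at -1.24. The cause of the scaling and header changes was not tested. Unknown depth limits what can be said of members near 0.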

Other observations

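Zfp457 had 1.14, 10.6 and 1.10 TPM in ETA sheets, against 0.892, 0.782 and 0 TPM in Epidermal sheets, so its mean of over 2 TPM comes from ETA sheet 2. In Zfp97 a single Epidermal sheet stands out: it had 2.51, 0 and 0.906 TPM in ETA sheets, against 0, 13.1 and 0 TPM in Epidermal sheets. Zfp972, in which no finger pattern was found, had 5.11, 13.6 and 7.77 TPM in ETA sheets, against 8.71, 2.14 and 0 TPM in Epidermal sheets. The 4 members that averaged 2 TPM or more only in ETA sheets were Zfp92, Zfp457, Zfp300 and Zfp605. Zfp605 had 2.90, 3.19 and 2.95 TPM in ETA sheets and 0.503, 0.504 and 2.80 TPM in Epidermal sheets; its groups do not overlap, and it was not called (limma adjusted p = 0.0751). When transcripts without a symbol were named by accession, 5 other symbols of the family reached the mean of 2 TPM.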
